A study of Mus musculus with 75 samples.

Results

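Potassium channel subunits were taken as the genes whose symbol is Kcn followed by letters and a number, with Kcnq1ot1 and names ending in os left out. The rule found 92 genes among the 55487 gene identifiers of the hippocampus files and 91 among the 37310 identifiers of the cortex and nuclei files, where Kcnj11 was not listed. By role they were 30 voltage-gated pore subunits, 10 silent modifiers, 15 inward rectifiers, 14 tandem-pore (K2P) leak subunits, 8 subunits of the SLO and SK families and 15 accessory subunits.

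The study altered DNMT3A, one of the enzymes that methylate DNA, in C57BL/6 mice, and 26 RNA libraries from brain among its 75 samples were used. All came from postnatal day 21. Cortex was sequenced from Dnmt3a1-/- (3 libraries), which lack the long isoform, from Dnmt3a2-/- (2 libraries), which lack the short isoform, and from Dnmt3a1_delta_N (3 libraries), named for a deletion in the N-terminal part of the long isoform. Wild type cortex gave 8 libraries, titled in 3 numbering series called plain (3 libraries), r (2) and n (3) here. Hippocampus came from Dnmt3a1-/- and wild type mice (3 libraries each), and sorted cortical neuron nuclei from samples labelled Dnmt3a1-/- and wild type (2 libraries each). The labels tie no wild type series to a mutant. The plain series was set against Dnmt3a1-/-, the r series against Dnmt3a2-/- and the n series against Dnmt3a1_delta_N. Whether the libraries of a group came from different mice is not given in the sources used here, so each p-value measures only the spread between these libraries.

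Potassium channels let potassium cross the membrane along its gradient and so set the resting potential, end action potentials and limit firing. Voltage-gated pore subunits assemble into tetramers that open on depolarisation, silent modifiers form no channel alone but join certain delayed rectifier pores and shift their gating, inward rectifiers pass potassium best near rest, and K2P subunits carry the background leak. Calcium or sodium ions open most SLO and SK channels, and accessory subunits alter the traffic and gating of the pores. In the brain most of these genes are active in neurons, while Kcnj10 is the main potassium channel gene of astrocytes, the glia that take up potassium released by active neurons.

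Dnmt3a1-/- cortex had many of these subunits at lower RNA levels than wild type cortex. Of the 79 members that passed the filter on low counts, 25 (31.6%) were called lower and 1 (1.27%), Kcnt1, was called higher, at an adjusted p under 0.05 by edgeR's quasi-likelihood F-test with Benjamini-Hochberg adjustment over all genes tested. Of all 15933 genes tested, 8.91% were called lower and 8.95% higher. The median log2 fold change was -0.26 over the members and 0.01 over all genes, and 74.7% of the members had a negative value, against 49.0% of all genes. Libraries of the groups did not overlap in 33 members that were lower in the mutant (background 17.7%) and in 5 that were higher (18.4%), and the 26 called members were all among these. The share of counts in lines that name no gene was also apart between the groups, at 28.85–30.19% in Dnmt3a1-/- cortex and 27.3–28.29% in plain wild type cortex, as was the share of uniquely aligned reads in no annotated feature (10.34–10.8% in Dnmt3a1-/- and 9.38–10.16% in wild type). Their part in the subunits' changes was not tested. These are bulk samples, in which fewer cells of a type and less RNA per cell cannot be told apart.

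Sequences around the start sites of 3 called members are shown because CG dinucleotides are the main sites of DNA methylation in mammals, and these starts differ in how many they hold. They run from 250 bases before to 50 bases after the transcription start, 5′ to 3′ on the gene's strand, and come from RefSeq (GRCm38.p6), a later build than the mm9 of the counts. Kcng4 (chr8:119635631-119635930, minus strand) had the largest fold change among the called members, Kcnj10 (chr1:172340960-172341259, plus strand) the smallest p, and Kcnh7 (chr2:63184238-63184537, minus strand) the smallest p among voltage-gated subunits. Each CG is in capitals.
Kcng4: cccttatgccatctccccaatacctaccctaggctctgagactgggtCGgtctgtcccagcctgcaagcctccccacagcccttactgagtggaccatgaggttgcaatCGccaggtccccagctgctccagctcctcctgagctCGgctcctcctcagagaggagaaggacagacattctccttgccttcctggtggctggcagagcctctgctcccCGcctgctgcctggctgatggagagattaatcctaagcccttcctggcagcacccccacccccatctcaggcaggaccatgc
Kcnj10: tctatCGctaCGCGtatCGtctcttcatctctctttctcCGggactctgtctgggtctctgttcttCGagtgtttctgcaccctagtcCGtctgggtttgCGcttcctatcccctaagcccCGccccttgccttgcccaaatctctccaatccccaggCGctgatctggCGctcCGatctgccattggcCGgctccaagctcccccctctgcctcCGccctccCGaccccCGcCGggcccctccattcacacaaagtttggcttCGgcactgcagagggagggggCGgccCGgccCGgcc
Kcnh7: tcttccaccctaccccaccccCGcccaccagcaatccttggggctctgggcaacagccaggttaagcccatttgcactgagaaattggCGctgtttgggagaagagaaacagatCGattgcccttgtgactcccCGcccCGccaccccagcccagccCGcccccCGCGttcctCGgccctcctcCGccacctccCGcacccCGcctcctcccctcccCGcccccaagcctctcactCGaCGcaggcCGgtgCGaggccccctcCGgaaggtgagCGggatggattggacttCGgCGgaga

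The Kcng4 window held 4 CGs, and 68.6% of all 32851 such windows held at least as many. The Kcnj10 and Kcnh7 windows held 21 each, a number reached by 24.8% of all windows. The 18 lower members with an entry had 24 windows with a median of 10 CGs (3 to 41), against 9 in the 57 windows of 39 tested members that were not called and 7 over all windows. The lower members thus included CG-poor and CG-rich starts. The hexamer TATAAA, searched on both strands, was in 0 of the 24 windows of lower members, in 5 of 57 windows of tested members that were not called (8.77%) and in 13.6% of all windows.

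The targeted gene was read first. Dnmt3a had 73.2, 80.7 and 74.0 CPM (counts per 1000000 of the library's gene counts) in Dnmt3a1-/- cortex, against 152, 165 and 146 CPM in the plain wild type series (log2 fold change -1.02 ± 0.07 SE, edgeR adjusted p = 1.2e-05). In hippocampus it had 71.5, 76.1 and 72.3 CPM in Dnmt3a1-/-, against 162, 149 and 134 CPM in wild type (-1.04 ± 0.09, edgeR adjusted p = 0.00011). In the nuclei labelled Dnmt3a1-/- it had 382 and 369 CPM, against 405 and 399 CPM in wild type nuclei (-0.10 ± 0.15, edgeR adjusted p = 0.89). The nuclei therefore do not show the lower gene total that the same label carries in tissue. Counts per gene do not separate the isoforms, and in Dnmt3a2-/- and Dnmt3a1_delta_N cortex the log2 fold changes of -0.12 ± 0.10 and -0.18 ± 0.07 were not called. Gene counts per library ran from 8677149 to 39049155, and replicates differed by more than sampling noise in all groups.

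**Figure D1:**
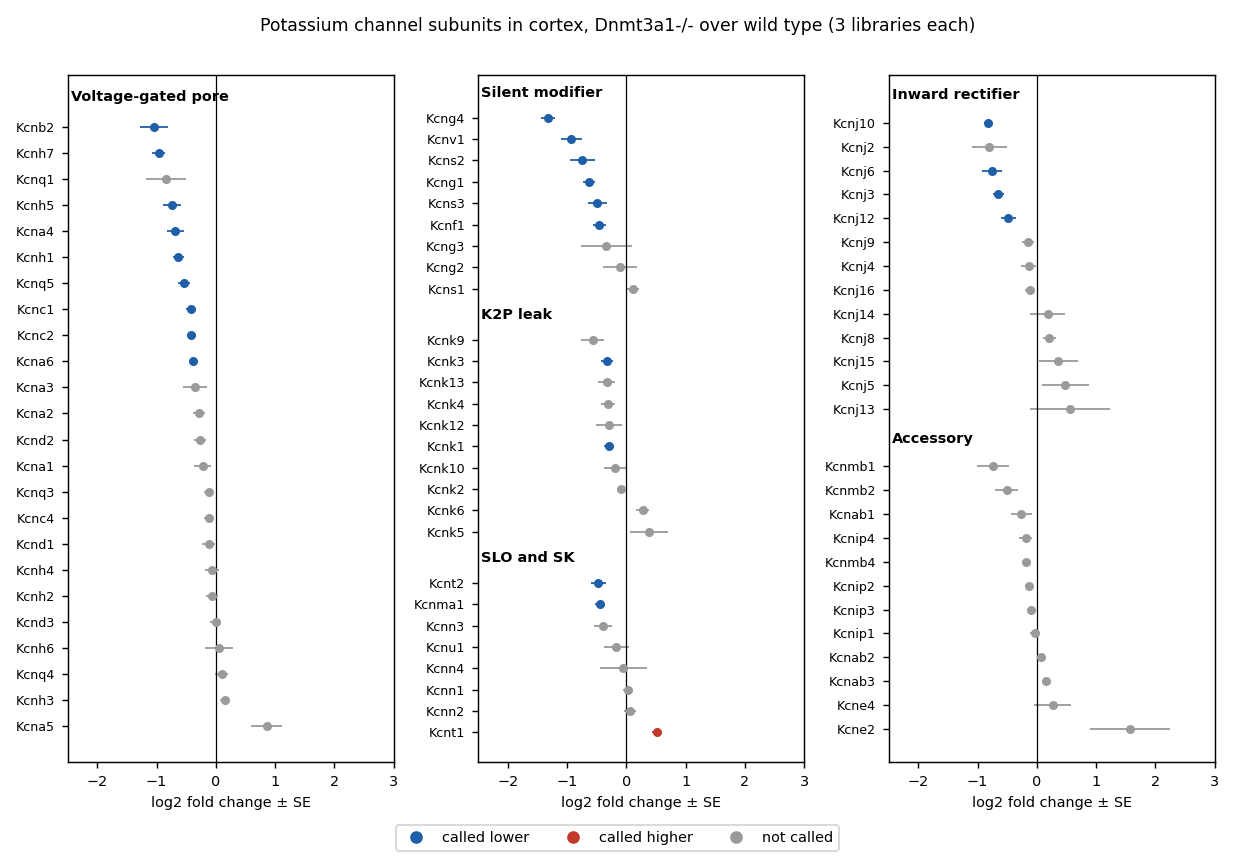
Log2 fold change with its standard error of 76 of the 79 potassium channel subunits tested in cortex, Dnmt3a1-/- over wild type, grouped by role; the line at 0 marks no change. Blue points are 23 members called lower, the red point is Kcnt1, called higher, and grey points are members that were not called.

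Among voltage-gated pore subunits, 11 of 27 tested were called lower and 0 higher, with a median log2 fold change of -0.29. Kcnh7, an ERG-type subunit, had 48.95, 47.3 and 57.2 CPM in Dnmt3a1-/- cortex, against 85.9, 99.2 and 113.6 CPM in wild type cortex (log2 -0.96 ± 0.11, edgeR adjusted p = 0.00062). Its mutant libraries all lay below the lowest wild type one. Kcnh1, an EAG-type subunit, had 53.2, 61.7 and 64.6 CPM in Dnmt3a1-/- and 82.2, 95.1 and 100.5 CPM in wild type (-0.63 ± 0.10, edgeR adjusted p = 0.0012). Kcnh5, the other EAG-type gene, had 4.51, 4.725 and 6.03 CPM in Dnmt3a1-/- and 7.40, 9.02 and 9.51 CPM in wild type (-0.74 ± 0.15, edgeR adjusted p = 0.0053). Kcnh2, Kcnh3, Kcnh4 and Kcnh6 were not called and lay between -0.07 and 0.15.

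Kcnc1 and Kcnc2 encode fast delayed rectifiers that let interneurons fire at high rates. Kcnc2 had 76.5, 78.6 and 78.4 CPM in Dnmt3a1-/- cortex, against 98.3, 107.4 and 104.7 CPM in wild type (log2 -0.41 ± 0.07, edgeR adjusted p = 0.0014). Kcnc1 had 98.85, 115.0 and 97.0 CPM in Dnmt3a1-/- and 129.7, 146.5 and 137.6 CPM in wild type (-0.42 ± 0.08, edgeR adjusted p = 0.0041). Both fell without overlap between the groups, while Kcnc4 (-0.12 ± 0.08) was not called. Kcnq5 contributes to the M current, which holds neurons back from repetitive firing. Kcnq5 had 52.7, 55.1 and 59.55 CPM in Dnmt3a1-/-, against 69.45, 83.5 and 89.2 CPM in wild type (-0.53 ± 0.10, edgeR adjusted p = 0.003). Its libraries did not overlap between the groups. Kcnq3, its partner in that current, was not called (-0.12 ± 0.08).

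Kcna6 and Kcna4 are Shaker-type subunits, and Kcna4 gives a fast inactivating current. Kcna6 had 79.0, 85.4 and 80.1 CPM in Dnmt3a1-/- cortex and 99.0, 114.3 and 104.7 CPM in wild type (log2 -0.38 ± 0.07, edgeR adjusted p = 0.0038). Kcna4 had 5.70, 6.29 and 9.22 CPM in Dnmt3a1-/- and 11.45, 11.6 and 11.7 CPM in wild type (-0.68 ± 0.15, edgeR adjusted p = 0.0096). In wild type the Kcna4 libraries were nearly equal, and the mutant ones spread more widely below them. Kcnb2, a delayed rectifier that silent modifiers join, had 1.19, 1.94 and 1.37 CPM in Dnmt3a1-/- and 2.33, 3.65 and 3.60 CPM in wild type (-1.04 ± 0.24, edgeR adjusted p = 0.01). Its highest mutant library stayed below the lowest wild type one. Kcna5, a Shaker-type subunit, ran the other way without being called, with 6.64, 7.93 and 8.38 CPM in Dnmt3a1-/- and 2.58, 4.32 and 6.13 CPM in wild type (0.86 ± 0.26, edgeR adjusted p = 0.053). Against all 8 wild type cortex libraries its log2 fold change was 1.11 (edgeR adjusted p = 0.04).

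Of 9 silent modifiers tested, 6 were called lower and 0 higher, with a median log2 fold change of -0.49. Kcng4 had 5.02, 6.52 and 5.31 CPM in Dnmt3a1-/- cortex, against 14.5, 14.35 and 13.6 CPM in wild type (log2 -1.32 ± 0.12, edgeR adjusted p = 4e-05). This was a 2.49-fold decrease, and each group's libraries lay close together. Kcng1 had 15.4, 17.9 and 14.9 CPM in Dnmt3a1-/- and 22.5, 27.1 and 24.9 CPM in wild type (-0.63 ± 0.10, edgeR adjusted p = 0.0013). Kcnf1 had 82.0, 95.4 and 79.0 CPM in Dnmt3a1-/- and 99.7, 125.6 and 127.5 CPM in wild type (-0.46 ± 0.11, edgeR adjusted p = 0.012). The next 3 modifiers also separated the groups but varied more within them. Kcnv1 had 47.85, 47.7 and 63.2 CPM in Dnmt3a1-/- and 83.4, 98.8 and 120.4 CPM in wild type (-0.93 ± 0.18, edgeR adjusted p = 0.017). Kcns2 had 9.62, 10.8 and 13.7 CPM in Dnmt3a1-/- and 14.6, 19.0 and 24.3 CPM in wild type (-0.74 ± 0.21, edgeR adjusted p = 0.047). Kcns3 had 4.51, 3.81 and 3.98 CPM in Dnmt3a1-/- and 4.745, 6.52 and 5.79 CPM in wild type (-0.49 ± 0.16, edgeR adjusted p = 0.043), with its nearest libraries almost touching.

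Inward rectifiers had 4 of 13 tested members called lower and 0 higher, with a median log2 fold change of -0.14. Kcnj10, the astrocyte channel, had 335, 358 and 366 CPM in Dnmt3a1-/- cortex, against 635, 594 and 639.6 CPM in wild type (log2 -0.82 ± 0.07, edgeR adjusted p = 1.3e-05). The groups lay far apart, but wild type cortex itself varied by series, with 450–451 CPM in the r libraries and 429–496 CPM in the n libraries. Against all 8 wild type cortex libraries the Kcnj10 difference was -0.54 (edgeR adjusted p = 0.02). Kcnj3 and Kcnj6 encode subunits of the channels that G proteins open behind many inhibitory receptors. Kcnj3 had 60.1, 60.7 and 65.6 CPM in Dnmt3a1-/- and 86.5, 96.1 and 109.2 CPM in wild type (-0.65 ± 0.09, edgeR adjusted p = 0.00061). Kcnj6 had 4.51, 5.75 and 7.435 CPM in Dnmt3a1-/- and 8.63, 11.2 and 11.02 CPM in wild type (-0.76 ± 0.17, edgeR adjusted p = 0.0092). Kcnj12, a strong inward rectifier, had 6.47, 6.745 and 7.13 CPM in Dnmt3a1-/- and 8.30, 10.4 and 9.73 CPM in wild type (-0.48 ± 0.13, edgeR adjusted p = 0.018).

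Among K2P leak subunits, 2 of 10 tested were called lower and 0 higher, with a median of -0.29 on the log2 scale. Kcnk1, a weakly inward-rectifying subunit, had 109.8, 114.6 and 127.9 CPM in Dnmt3a1-/- cortex and 130.2, 146.1 and 152.5 CPM in wild type (-0.29 ± 0.08, edgeR adjusted p = 0.033). Kcnk3, an acid-sensitive leak subunit, had 17.2, 17.45 and 14.95 CPM in Dnmt3a1-/- and 18.4, 22.3 and 21.3 CPM in wild type (-0.33 ± 0.10, edgeR adjusted p = 0.037). Both decreases were small beside those of the silent modifiers, and neither gene overlapped between the groups. Kcnk9, a relative of Kcnk3, overlapped between the groups with 3.41, 3.81 and 5.88 CPM in Dnmt3a1-/- and 5.81, 7.68 and 6.47 CPM in wild type (-0.57 ± 0.19, edgeR adjusted p = 0.058).

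The SLO and SK families held the one called increase. Kcnt1, a sodium-activated channel, had 187.9, 213.2 and 187.3 CPM in Dnmt3a1-/- cortex, against 126.6, 149.9 and 135.8 CPM in wild type (log2 0.51 ± 0.08, edgeR adjusted p = 0.0012). Its paralog Kcnt2 moved the opposite way, with 14.8, 11.4 and 15.1 CPM in Dnmt3a1-/- and 17.2, 19.2 and 20.6 CPM in wild type (-0.47 ± 0.12, edgeR adjusted p = 0.016). Neither gene overlapped between the groups. Wild type Kcnt2 also varied by series, and against all 8 wild type libraries it was -0.84 (edgeR adjusted p = 0.012). Against all 8 wild type libraries Kcnt1 was 0.40 higher (edgeR adjusted p = 0.022), and the n wild type libraries alone ran from 156 to 188 CPM. Kcnma1, the large-conductance calcium-activated channel, had 41.55, 45.0 and 48.0 CPM in Dnmt3a1-/- and 57.6, 61.1 and 66.1 CPM in wild type (-0.45 ± 0.08, edgeR adjusted p = 0.0023). Kcnn1, Kcnn2 and Kcnn3, the SK channels, were not called (0.03 ± 0.09, 0.06 ± 0.10 and -0.39 ± 0.15). None of 12 accessory subunits tested was called either, with a median of -0.12.

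Of these 26 calls, 16 stood in each of the 6 fits that left out 1 library, and others rested on particular libraries by edgeR adjusted p. Without Dnmt3a1-/- replicate 1, Kcnv1, Kcnj12, Kcnk1, Kcnk3, Kcns3 and Kcns2 were not called (0.051 to 0.13). Without Dnmt3a1-/- replicate 2, Kcnj6, Kcnt2, Kcnv1, Kcnj12, Kcnk1, Kcns3 and Kcns2 were not called (0.054 to 0.18), and without replicate 3 Kcnk3 (0.1) and Kcns3 (0.083) were not. Without wild type replicate 2, Kcnv1, Kcnj12, Kcnk1, Kcnk3, Kcns3 and Kcns2 were not called (0.056 to 0.18). Without wild type replicate 3, Kcnt2, Kcnj12, Kcnk1, Kcnk3, Kcns3 and Kcns2 were not called (0.052 to 0.14). With the replicate number as a block, 41 members were called lower and 4 higher, including all 26, where 16.0% of all genes were called lower and 15.1% higher. Against all 8 wild type libraries 29 were called lower and 2 higher, where 9.41% and 9.53% of all genes were, and Kcns2 was not called (0.098).

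**Figure D2:**
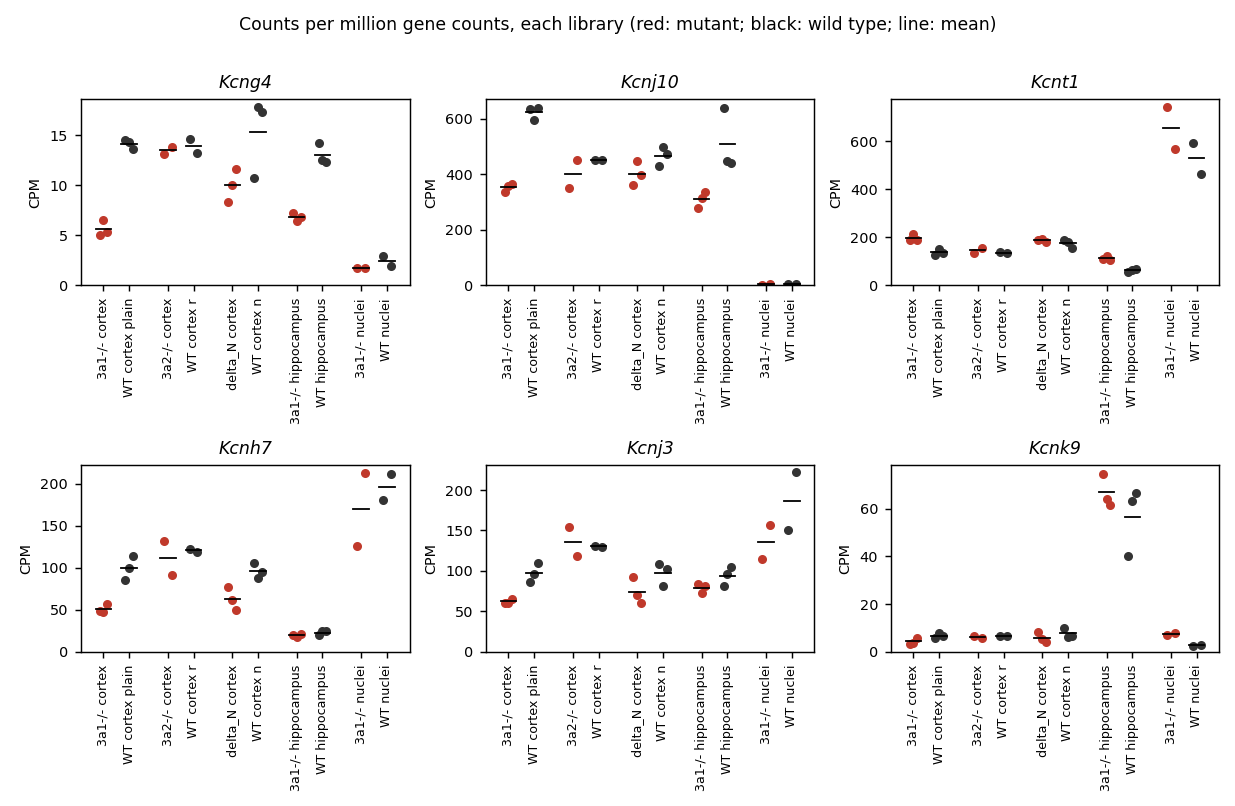
CPM of Kcng4, Kcnj10, Kcnt1, Kcnh7, Kcnj3 and Kcnk9 in each library of the 10 groups; red points are mutant libraries, black points wild type ones, and short lines the group means. Kcng4 in Dnmt3a1-/- cortex (5.02 to 6.52 CPM) and hippocampus (6.43 to 7.22 CPM) sits below every wild type tissue library.

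Other genes of potassium handling were read beside the subunits. Of 35 channel partners tested, 17 were called lower in Dnmt3a1-/- cortex and 0 higher (median log2 -0.25), and their summed level was 8385–8820.1 CPM in Dnmt3a1-/- and 9705–10097 CPM in wild type. Rgs4, which shortens G protein signals, averaged 246 CPM in Dnmt3a1-/- and 372 CPM in wild type (-0.60 ± 0.07, edgeR adjusted p = 0.00022), and Akap5, a scaffold of kinases at channels, averaged 26.2 CPM in Dnmt3a1-/- and 38.1 CPM in wild type (edgeR adjusted p = 0.0019). Of 7 related cation channels tested, 5 were called lower (median -0.33), among them Hcn3, of the family that opens on hyperpolarisation, which averaged 9.72 CPM in Dnmt3a1-/- and 13.6 CPM in wild type. Of 18 potassium pumps and cotransporters tested, 5 were called lower and 0 higher (median -0.11). Atp1b1, a subunit of the sodium-potassium pump, averaged 1017 CPM in Dnmt3a1-/- and 1404 CPM in wild type (-0.47, edgeR adjusted p = 0.0024). Over all genes 8.91% were called lower in this comparison.

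Cell type markers were read beside the subunits, and their part in the subunits' changes was not tested. Of 9 excitatory neuron markers tested, 1 was called higher and 2 lower (median -0.16), with summed levels of 5258–5716 CPM in Dnmt3a1-/- and 5514–5524 CPM in wild type. Of 10 inhibitory neuron markers, 0 were called higher and 2, Gad2 and Reln, lower (median -0.19, 648–795 CPM in Dnmt3a1-/- and 783–859.7 CPM in wild type). Neuronal marker sums therefore overlapped between the groups. Markers of excitatory neurons were called in both directions, with Neurod6 (-0.69) among the lower ones. Of 8 astrocyte markers, 3 were called higher and 1 lower (median 0.11, 16076–16927 CPM in Dnmt3a1-/- and 14943–16312 CPM in wild type). The lower one was Aqp4, the water channel of astrocyte endfeet, which averaged 222 CPM in Dnmt3a1-/- and 315 CPM in wild type (-0.51 ± 0.08, edgeR adjusted p = 0.0009), beside the lower Kcnj10. Oligodendrocyte markers had 2 of 8 called higher (median 0.06, 18926–22517 CPM in Dnmt3a1-/- and 16372–19332 CPM in wild type) and precursor markers 2 of 6 (0.13, 612–637 CPM in Dnmt3a1-/- and 556–594 CPM in wild type), microglia 0 of 8, endothelium 2 of 8 lower (-0.05), mural and meningeal cells 3 of 8 lower (-0.38, 514–565 CPM in Dnmt3a1-/- and 636–906 CPM in wild type), blood 1 of 6 lower (-1.12, 338–521 CPM in Dnmt3a1-/- and 523–828 CPM in wild type), hippocampal neurons 2 of 8 lower (-0.16, 309.9–331 CPM in Dnmt3a1-/- and 335–361 CPM in wild type) and striatum 0 of 8. The summed levels of precursor, mural and meningeal, blood and hippocampal neuron markers thus did not overlap between the groups, the first higher and the others lower in Dnmt3a1-/-. None of these lists was at 0 in tissue libraries.

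Kcnj13 and Kcne2 are strongly expressed in choroid plexus, and their levels varied by library along with Ttr, its main secreted product. In Dnmt3a1-/- cortex Kcne2 had 7.07, 2.29 and 4.06 CPM, against 1.76, 1.94 and 0.225 CPM in wild type (log2 1.57 ± 0.68, edgeR adjusted p = 0.19). Ttr in the same libraries had 1925, 784 and 1132 CPM in Dnmt3a1-/- and 489, 705 and 109.9 CPM in wild type, so the library with most Ttr also had most Kcne2. Kcnj13 had 6.98, 2.02 and 4.63 CPM in Dnmt3a1-/- and 3.68, 3.73 and 0.844 CPM in wild type, overlapping (0.56 ± 0.67). In Dnmt3a2-/- cortex Kcne2 had 0.0311 and 6.05 CPM, against 1.485 and 0.062 CPM in wild type, and Ttr had 10.8 and 1518 CPM in Dnmt3a2-/- and 254 and 18.5 CPM in wild type, so 1 library of each group held nearly all of both. In hippocampus the second Dnmt3a1-/- library, with 1718 CPM of Ttr, had 5.61 CPM of Kcnj13 and 5.33 CPM of Kcne2, while the wild type libraries had at most 84.4 CPM of Ttr, 0.692 CPM of Kcnj13 and 0.576 CPM of Kcne2. All 10 choroid plexus markers were tested and 0 called in cortex, with summed levels of 1407–2829 CPM in Dnmt3a1-/- and 565–1449 CPM in wild type.

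In Dnmt3a1-/- hippocampus, 3 of 74 tested members were called lower and 1 higher, where 0.827% of all 15727 genes were called lower and 1.69% higher. Lines that name no gene held 24.31–27.22% of counts in Dnmt3a1-/- hippocampus and 22.71–23.73% in wild type, and reads in no feature 9.69–10.3% in Dnmt3a1-/- and 8.41–8.74% in wild type; their part was not tested. Kcnt1 had 111.8, 121.5 and 105.5 CPM in Dnmt3a1-/- hippocampus, against 56.35, 64.6 and 66.7 CPM in wild type (log2 0.83 ± 0.09, edgeR adjusted p = 0.0011). Kcng4 had 7.22, 6.43 and 6.885 CPM in Dnmt3a1-/- and 14.2, 12.6 and 12.35 CPM in wild type (-0.94 ± 0.13, edgeR adjusted p = 0.0031). Both changes went the way they went in cortex and stood whichever library was left out. Kcnj10 had 277, 315 and 337 CPM in Dnmt3a1-/- and 637, 446 and 441 CPM in wild type (-0.73 ± 0.15, edgeR adjusted p = 0.027). Of the astrocyte markers, Aqp4 averaged 172 CPM in Dnmt3a1-/- and 271 CPM in wild type (edgeR adjusted p = 0.0073). The summed astrocyte markers overlapped between the groups, at 12417–14609 CPM in Dnmt3a1-/- and 12821–15984 CPM in wild type. Summed hippocampal neuron markers (749–786 CPM in Dnmt3a1-/-, 866–937 CPM in wild type) and mural and meningeal markers (429.8–505 and 549–615 CPM) were lower without overlap. Striatum markers were higher without overlap (75.3–86.2 CPM in Dnmt3a1-/-, 54.5–65.4 CPM in wild type). The other marker lists overlapped. Of single markers, Wfs1 and Rgs5 were called lower and Ppp1r1b higher. Their part in the subunits' changes was not tested. Kcnn3, the SK channel not called in cortex, had 23.8, 23.25 and 22.6 CPM in Dnmt3a1-/- and 30.5, 33.1 and 28.9 CPM in wild type (-0.43 ± 0.09, edgeR adjusted p = 0.029). None of the 4 called members overlapped between the groups. Of the 74 members, 7 were higher and 8 lower without overlap, where 13.9% and 8.34% of all genes were.

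The Kcnj10 call ended without Dnmt3a1-/- hippocampus replicate 1 (-0.64, edgeR adjusted p = 0.072) or 2 (-0.74, 0.1). Kcnn3 was called in 1 of the 6 fits that left out a library; without Dnmt3a1-/- replicate 1, 2 or 3 its edgeR adjusted p was 0.075, 0.11 and 0.073, and without wild type replicate 2 or 3 it was 0.14 and 0.054. The count of lower members was 10 without wild type replicate 1 and 1 without Dnmt3a1-/- replicate 2, and the count of higher members was 2 without Dnmt3a1-/- replicate 3. Over all 74 members the median log2 fold change was -0.13, against 0.01 over all genes, and 68.9% were negative, against 49.0% of all genes. Kcna5 again ran higher without being called, with 3.61, 4.445 and 4.09 CPM in Dnmt3a1-/- and 0.922, 1.96 and 2.80 CPM in wild type (1.01 ± 0.28, edgeR adjusted p = 0.077). Kcnh7, called in cortex, overlapped in hippocampus with 20.15, 17.5 and 21.65 CPM in Dnmt3a1-/- and 19.7, 24.6 and 24.1 CPM in wild type. A test of the difference of effects, hippocampus minus cortex, called 0 members and 0 genes by edgeR (9 members at an unadjusted p under 0.05, 11.4% against 5.03% of all genes). No channel partner or related cation channel was called in hippocampus, and of the pumps and cotransporters Fxyd7, a modulator of the sodium-potassium pump, was higher (0.49, edgeR adjusted p = 0.03).

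Dnmt3a1_delta_N cortex gave smaller values, mostly of the same sign. By edgeR 0 of 79 tested members and 0 of 15881 genes were called, and 13 members were lower and 1 higher at an unadjusted p under 0.05, against 4.22% and 3.76% of all genes. DESeq2 called 2 members and 0.148% of all genes lower. The members with the smallest p were Kcnv1, with 82.3, 86.1 and 67.6 CPM in Dnmt3a1_delta_N and 108.0, 110.5 and 97.8 CPM in wild type (log2 -0.41 ± 0.09, edgeR adjusted p = 0.41), Kcnh7 and Kcnh1. Kcnh7 had 76.6, 61.1 and 49.4 CPM in Dnmt3a1_delta_N, against 106.3, 87.6 and 95.6 CPM in wild type (-0.62 ± 0.14, edgeR adjusted p = 0.46). Kcnh1 had 77.9, 72.9 and 59.4 CPM in Dnmt3a1_delta_N and 106.2, 81.0 and 97.7 CPM in wild type (-0.43 ± 0.11, edgeR adjusted p = 0.46). None of the 3 overlapped between the groups, and in all 8 members were lower without overlap (background 7.07%).

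Libraries with the same number deviated together in Dnmt3a1_delta_N and n wild type cortex, a pairing that comes from these data and not from the labels. In an alternative fit with that number as a block, 7 members were called lower by edgeR, where 0.542% of all genes were. They were Kcnv1 (adjusted p = 0.0088), Kcnh7 (0.0088), Kcnma1 (0.012), Kcng4 (0.019), Kcnh5 (0.021), Kcnt2 (0.033) and Kcnj6 (0.035). Among members that ran higher, Kcnj16, which joins Kcnj10 in astrocytes, had 60.3, 78.1 and 67.0 CPM in Dnmt3a1_delta_N and 55.25, 64.4 and 57.7 CPM in wild type (0.23 ± 0.10, edgeR adjusted p = 0.62). Kcnn2 (0.23 ± 0.11) and Kcne2 (1.59 ± 0.93) followed, with overlap between the groups in all 3. Kcne2 had 2.92, 2.855 and 0.438 CPM in Dnmt3a1_delta_N and 0.365, 1.53 and 0.146 CPM in wild type, and Ttr had 905, 668 and 76.1 CPM in Dnmt3a1_delta_N and 72.3, 380.1 and 27.1 CPM in wild type. Kcng4 had 8.33, 10.02 and 11.65 CPM in Dnmt3a1_delta_N and 10.7, 17.8 and 17.4 CPM in wild type (-0.59 ± 0.21, edgeR adjusted p = 0.58). By role, silent modifiers had a median of -0.20 and voltage-gated pore subunits of -0.17, against 0.00 over all genes.

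In Dnmt3a2-/- cortex, 0 of 77 tested members were called by edgeR and 0 by DESeq2, with 1 (Kcnk5) at an unadjusted p under 0.05, against 2.87% of all genes. Of all 15929 genes 0.00628% were called. Libraries did not overlap in 19 members that were lower in Dnmt3a2-/- (background 12.7%) and in 4 that were higher (14.8%). Kcnk5, a pH-sensitive leak subunit, had 0.716 and 0.630 CPM in Dnmt3a2-/-, against 0.290 and 0.403 CPM in wild type (log2 0.94 ± 0.40, edgeR adjusted p = 1). Kcna5 (0.49 ± 0.22) and Kcnk6 (0.23 ± 0.18) followed among higher members. The lower members with the smallest p were Kcnj2 (-0.38 ± 0.17), Kcnj16 (-0.22 ± 0.10) and Kcnj6 (-0.26 ± 0.14), all inward rectifiers. Kcnj2 had 18.9 and 28.9 CPM in Dnmt3a2-/-, against 28.9 and 32.7 CPM in wild type, overlapping. Without Dnmt3a2-/- replicate 2 it was called lower (-0.70, edgeR adjusted p = 0.005), a fit in which 1 mutant library is assumed to vary as the wild type ones do. Kcng4 had 13.2 and 13.9 CPM in Dnmt3a2-/- and 14.7 and 13.2 CPM in wild type, overlapping. Its log2 fold change exceeded that in Dnmt3a1-/- cortex by 1.26 ± 0.17 (edgeR adjusted p = 0.0054 for the difference of effects), where 0.120% of all genes were called higher. Without r wild type replicate 2 the difference was 1.17 and lost its call. Mutation and wild type series cannot be told apart in it.

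**Figure D3:**
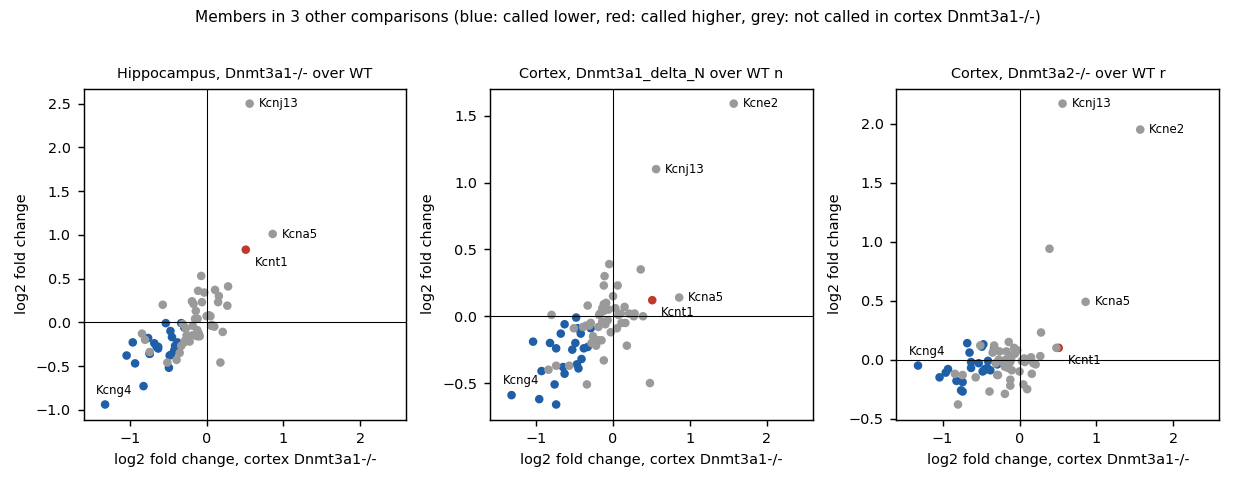
Log2 fold change of each member in Dnmt3a1-/- hippocampus, Dnmt3a1_delta_N cortex and Dnmt3a2-/- cortex (y axes) against that in Dnmt3a1-/- cortex (x axes), each over its own wild type libraries. Points are members, coloured by their call in Dnmt3a1-/- cortex, and Kcng4, Kcnt1, Kcne2, Kcnj13 and Kcna5 are named. The 23 lower members shown all lie below 0 in hippocampus and in Dnmt3a1_delta_N cortex.

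The direction of the 25 members called lower in Dnmt3a1-/- cortex was read in the other comparisons, which share no library with it. In hippocampus 25 of 25 were negative with a median of -0.28, against 93.5% of all genes called lower in that cortex (median -0.23). In Dnmt3a1_delta_N cortex 25 of 25 were negative with a median of -0.24, against 89.3% of those genes (-0.13). In Dnmt3a2-/- cortex 20 of 25 were negative (median -0.08, against 71.9% and -0.05), Kcna4, Kcnj3, Kcnk3, Kcns3 and Kcnt2 being positive. In nuclei labelled Dnmt3a1-/- 18 of 25 were negative (median -0.07, against 69.8% and -0.10). The members' shares of negative values thus lay near those of cortex-lower genes as a whole. For Kcnj10 a difference of effects was called, each mutant being read over the wild type series set against it. The effect in Dnmt3a1_delta_N cortex was 0.63 ± 0.11 above that in Dnmt3a1-/- cortex (edgeR adjusted p = 0.044), where 0.0182% of all genes were called higher. That call held in 2 of 12 fits that left out a library, those without Dnmt3a1_delta_N replicate 1 or n wild type replicate 2, and ended in the others (0.052 to 0.15). Kcnj10 ran from 361 to 447 CPM in Dnmt3a1_delta_N and from 429 to 496 CPM in n wild type cortex. All plain wild type libraries lay above the n wild type ones for this gene, while the ranges of Dnmt3a1-/- and Dnmt3a1_delta_N cortex overlapped. The labels tie neither wild type series to a mutant, so mutation and wild type series cannot be told apart in this difference.

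In the nuclei labelled Dnmt3a1-/-, 1 of 72 tested members was called higher and 0 lower, where 0.214% of all 15860 genes were called higher and 0.0315% lower. Slc24a4 of the pumps and cotransporters (log2 0.95, edgeR adjusted p = 0.0098) and Matn4 of the precursor markers (1.03, 0.032) were called higher. Hba-a1 of the blood markers was called lower (-1.50, edgeR adjusted p = 0.035). Summed precursor and microglia markers were higher without overlap, and blood and hippocampal neuron markers lower. Their part was not tested. Kcnk9, the acid-sensitive leak subunit, had 6.81 and 7.83 CPM in nuclei labelled Dnmt3a1-/-, against 2.36 and 2.99 CPM in wild type nuclei (log2 1.45 ± 0.22, edgeR adjusted p = 0.0096). The call ended without wild type nuclei replicate 1 (1.30, edgeR adjusted p = 0.27). This gene had overlapping libraries and a negative value in Dnmt3a1-/- cortex, and overlapping libraries in hippocampus, with 74.8, 64.2 and 61.8 CPM in Dnmt3a1-/- and 40.1, 63.2 and 66.8 CPM in wild type. Its log2 fold change in nuclei exceeded that in cortex by 2.03 ± 0.30 (edgeR adjusted p = 0.0091), where 0.237% of all genes were called higher for that difference. Mutation, preparation and library series cannot be told apart in differences between nuclei and cortex. Kcng1 also differed between nuclei and cortex (0.81 ± 0.16, edgeR adjusted p = 0.042). It lost that call without any library but plain wild type replicate 1 or wild type nuclei replicate 2 (0.052 to 0.1).

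Wild type nuclei held neuronal markers and little glial RNA. Inhibitory neuron markers summed to 705–881 CPM in wild type nuclei and 783–859.7 CPM in plain wild type cortex, and excitatory ones to 3147–3158 CPM in wild type nuclei and 5514–5524 CPM in plain wild type cortex. Astrocyte markers summed to 729–744 CPM in wild type nuclei, against 14943–16312 CPM in plain wild type cortex, and the channels of astrocytes and vessels were low as well. Kcnj10 averaged 4.48 CPM in the 2 wild type nuclei libraries (3.98 and 4.97), against 521 ± 87.6 CPM in wild type cortex (SD, n = 8), with edgeR's log2 difference at -7.12. Kcnj16, its partner, averaged 1.54 CPM in wild type nuclei and 71.5 CPM in wild type cortex. Kcnj8, known from pericytes and smooth muscle, averaged 0.142 CPM in wild type nuclei and 9.72 CPM in wild type cortex. Kcnmb1, Kcnj13 and Kcnj15 were at 0 in both wild type nuclei libraries.

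**Figure D4:**
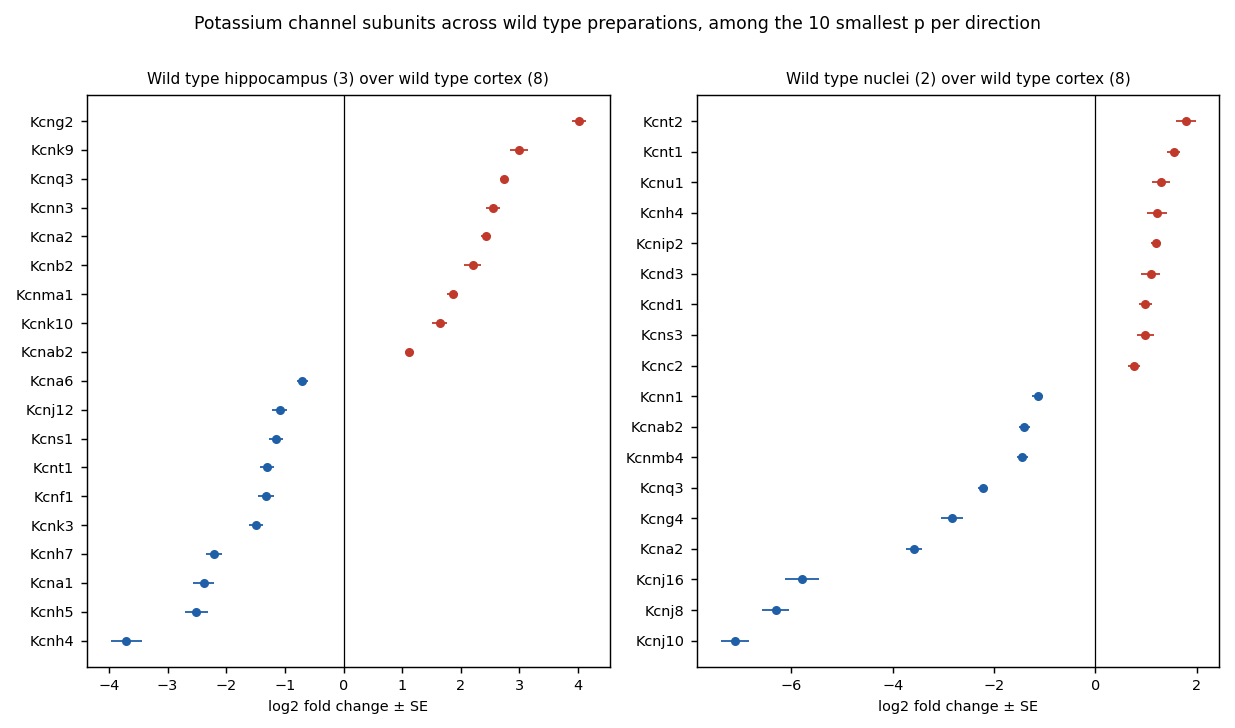
Log2 difference with its standard error for members among the 10 with the smallest p in each direction, wild type hippocampus (3 libraries) over wild type cortex (8) and wild type nuclei (2) over wild type cortex (8). Members at 0 in all wild type nuclei are left out, and Kcnj10 shows the lowest value in nuclei (-7.12).

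Members differed in both directions between nuclei and tissue. Of 79 members tested in wild type nuclei against wild type cortex, 19 were called higher and 39 lower, where 39.7% of all genes were called in each direction. Both sodium-activated channels were higher in nuclei: Kcnt1 averaged 528 CPM in wild type nuclei and 151 CPM in wild type cortex (1.55), and Kcnt2 103 CPM in wild type nuclei and 25.0 CPM in wild type cortex (1.79). Kcnip2, an accessory subunit of A-type channels, averaged 304 CPM in wild type nuclei and 111 CPM in wild type cortex (1.19). In contrast Kcna2, a Shaker-type subunit of axons, averaged 3.27 CPM in wild type nuclei and 32.8 CPM in wild type cortex (-3.58), and Kcng4 averaged 2.44 CPM in wild type nuclei and 14.5 CPM in wild type cortex (-2.83). K2P subunits had 0 of 10 called higher and 8 lower, and inward rectifiers 2 of 13 higher and 9 lower, while voltage-gated pore subunits had 9 of 27 higher and 10 lower. Nuclear and cytoplasmic RNA and sorted and whole cells cannot be told apart in this comparison.

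Wild type hippocampus against wild type cortex had 19 of 79 members called higher and 31 lower, where 21.5% and 20.5% of all genes were. Tissue, gene annotation and library series cannot be told apart here. Kcnq3 averaged 177 ± 20.8 CPM in wild type hippocampus (SD, n = 3), against 25.9 ± 1.22 CPM in wild type cortex (SD, n = 8; log2 2.74). Kcnk9 averaged 56.7 CPM in wild type hippocampus and 7.02 CPM in wild type cortex (2.99), and Kcna2 181 CPM in wild type hippocampus and 32.8 CPM in wild type cortex (2.43). Kcng2, a silent modifier, averaged 18.7 CPM in wild type hippocampus and 1.14 CPM in wild type cortex (4.01). The 3 genes Kcnh4, Kcnh5 and Kcnh7, all of the EAG superfamily, were lower in wild type hippocampus, at 1.56, 1.72 and 22.8 CPM, against 19.7, 9.87 and 104 CPM in wild type cortex (-3.70, -2.51 and -2.21). Kcnt1 averaged 62.6 ± 5.48 CPM in wild type hippocampus and 151 ± 22.1 CPM in wild type cortex (-1.30), and Kcna1 33.0 CPM in wild type hippocampus and 169.9 CPM in wild type cortex (-2.38). Kcng4 did not differ beyond the spread, with 13.0 ± 0.998 CPM in wild type hippocampus and 14.5 ± 2.27 CPM in wild type cortex (-0.20, edgeR adjusted p = 0.28).

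Of all 92 members, 81 were tested in at least 1 mutant comparison and 68 in all 5. The 11 tested in none were Kcna10, Kcna7, Kcne3, Kcnh8, Kcnj1, Kcnk15, Kcnk16, Kcnk18, Kcnk7, Kcnmb3 and Kcnv2, the highest library value being 0.861 CPM, in Kcnh8. Kcnj11, the pore of the ATP-sensitive channel, was read in hippocampus alone, with 31.6, 27.4 and 24.1 CPM in Dnmt3a1-/- and 24.6, 28.5 and 29.9 CPM in wild type, overlapping. Several members neighbour each other in the genome, among them Kcnj9 and Kcnj10, Kcnj6 and Kcnj15, and Kcna5, Kcna1 and Kcna6. Whether counting used the strand is not given in the sources used here, so reads of overlapping or antisense genes cannot be told apart. In each run of neighbours no more than 1 member was called in Dnmt3a1-/- cortex.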

How the data were processed

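The deposited files hold whole-number counts of reads per gene in each library; alignment used STAR 2.5.4a, counting HTSeq 0.11.0 and the genome mm9, per the submitters' processing notes. Lines that name no gene held 21.14 to 36.97% of a library's counts and were left out. Per the labels, nuclei were dounced from cortex and sorted on NeuN, and the mRNA kit was stranded.

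Counts were tested with edgeR 4.0.16 in R 4.3.3 (TMM, filterByExpr, robust quasi-likelihood F-test, Benjamini-Hochberg over all genes, called at an adjusted p under 0.05). Each mutant was tested against the wild type libraries set against it above, a choice that the labels do not give for the cortex series. The script was tested on simulated data with 200 changed genes. Differences of effects were contrasts over 4 groups on gene identifiers shared by the files. SE is the log2 fold change's size over the root of F. CPM divides a count by the library's gene total, and levels are compared within a gene, since lengths are not in the files. DESeq2 1.42.0, other scaling, no filter, a replicate block, all wild type cortex and leaving out each library were alternatives. DESeq2's test was run only for mutants against wild type. In the wild type tissue comparisons only hippocampus or nuclei libraries were left out, and no cortex library was.

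Some genes counted in the totals are not reported here. Members and lists were chosen with earlier results of these data known. Values per library are given for called members, or for the 3 with the smallest p per direction where none was called; up to 10 per direction in differences and tissue comparisons; up to 4 per list. Same-numbered libraries deviated together (pseudocount 0.5 CPM) in Dnmt3a1-/- cortex (r = 0.278, 0.402 and 0.221) and Dnmt3a1_delta_N cortex (0.435, 0.242 and 0.416). They were treated as pairs only in the alternative fits with a replicate block, and all other fits were unpaired. This pairing comes from the data, as the labels name no shared litter or batch. Counting error is small at these depths for all but the lowest genes.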

Additional observations from a re-analysis of the deposited data

Results flagged for a closer look

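The contrast of mutant with wild type libraries differed between comparisons in the members given here. The difference itself was tested (edgeR's quasi-likelihood F-test, Benjamini-Hochberg over all genes). The labels tie no wild type cortex series to a mutant. The nuclei labelled Dnmt3a1-/- do not show the lower Dnmt3a total of Dnmt3a1-/- cortex. Mutation, preparation and library series cannot be told apart in these differences. Kcnk9 was 2.03 ± 0.30 (log2) higher in nuclei labelled Dnmt3a1-/- than in Dnmt3a1-/- cortex, each over its wild type (edgeR adjusted p = 0.0091), and the call stood in each of 10 fits that left out a library. Kcng1 was 0.81 ± 0.16 higher for the same pair (edgeR adjusted p = 0.042), called in 2 of 10 such fits. Kcng1 had 33.0 and 32.95 CPM in nuclei labelled Dnmt3a1-/- and 27.2 and 31.6 CPM in wild type nuclei. The effect on Kcnj10 was 0.63 ± 0.11 higher in Dnmt3a1_delta_N than in Dnmt3a1-/- cortex (edgeR adjusted p = 0.044), called in 2 of 12 such fits. Its plain wild type libraries all lay above the n wild type ones, so mutation and wild type series cannot be told apart here. Kcng4 was 1.26 ± 0.17 higher in Dnmt3a2-/- than in Dnmt3a1-/- cortex (edgeR adjusted p = 0.0054), called in 9 of 10.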

How the results depend on the processing

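Of 906 values of 91 named results under alternatives, 826 kept their direction and their side of the threshold, 67 lost their call, 6 gained one and 7 changed sign. Counts of called members moved as follows. Dnmt3a1-/- cortex: lower 25, 41 with the replicate block and 17 to 31 when 1 library was left out; higher 1, 2 without filter, with DESeq2 or against all 8 wild type libraries, 4 with the block and 1 to 3 by library. Dnmt3a1_delta_N: lower 0, 1 without filter, 2 with DESeq2, 7 with the block. Dnmt3a2-/-: lower 0, 0 to 2 by library. Hippocampus: higher 1, 2 without filter or with DESeq2, 1 to 2 by library; lower 3, 7 without filter, 1 with the block, 1 to 10 by library. Nuclei: higher 1, 2 without filter, 4 with the block, 0 to 2 by library; lower 0, 3 with the block, 0 to 2 by library. Differences of effects: nuclei minus cortex higher 3, 15 without filter, 18 with the block, 1 to 5 by library, and lower 0, 1 without filter; Dnmt3a1_delta_N minus Dnmt3a1-/- higher 1, 6 with the block, 0 to 2 by library, and lower 0, 1 with the block; Dnmt3a2-/- minus Dnmt3a1-/- higher 1, 12 without filter, 10 with the block, 0 to 4 by library. Wild type hippocampus against cortex: higher 17 to 20, lower 25 to 27 when 1 hippocampus library was left out. Wild type nuclei against cortex: higher 15 to 18, lower 35 to 37 when 1 nuclei library was left out. Dependence on single cortex libraries was not tested in these comparisons. The cause was not tested. The share of all genes called is given above for only some of these alternatives. The counts here are therefore not read as results about the members.

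Signs changed against all 8 wild type cortex libraries, in Dnmt3a2-/- for Kcna5 (-0.46), Kcnk6 (-0.37), Kcnj2 (0.08) and Kcnj6 (0.10) and in Dnmt3a1_delta_N for Kcnj16 (-0.07) and Kcnn2 (-0.08), and in Dnmt3a2-/- for Kcnk6 (-0.06 without Dnmt3a2-/- replicate 1, 0.46 without replicate 2); none of these was called. Same-numbered libraries had correlations of -0.101, 0.25 and -0.011 in hippocampus, 0.071 in Dnmt3a2-/- cortex and 0.385 in nuclei (2 pairs). With 2 libraries per group both pairs give the same value by construction. By the labels, same-numbered libraries share only a number in all comparisons, Dnmt3a1-/- and Dnmt3a1_delta_N cortex included. The DESeq2 size-factor scaling moved the median of all genes by at most 0.03. Where leaving out 1 of 2 libraries left a group with 1, that library was assumed to vary like the other groups. Groups of 2 or 3 libraries, members near 1 CPM, and wild type series that differ among themselves limit what could be called.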
